A study of Mus musculus with 6 samples.

Results

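Mir148a, Mir148b and Mir152 are the 3 mouse genes of the miR-148 and miR-152 family, and they are 3 of the 1155 miRNA rows in the count table. The rule that picks them is their gene name, and all 3 passed the filter on low counts. The series sequenced small RNA from mouse embryonic fibroblasts, connective tissue cells grown from embryos, in DMEM with fetal bovine serum and non-essential amino acids. The groups were 3 wild-type (WT) libraries and 3 libraries with Fbxw7 knocked out (Fbxw7 KO), with no other treatment named. Fbxw7 encodes the part of a ubiquitin ligase complex that recognises proteins bound for degradation, such as Myc, cyclin E and Notch. The sources used here give neither the knockout method nor the age of the embryos, and they do not say if replicates are separate embryos, separate cultures or repeats of 1 preparation. The p-values therefore measure the spread between these libraries, which may be technical.

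A miRNA is cut from a hairpin in its primary transcript and loaded into an Argonaute protein, where the bases near its 5′ end, the seed, pair with target mRNAs and lower their output. Members of the miR-148 and miR-152 family are best known as repressors of Dnmt1, the enzyme that maintains DNA methylation. Mir148a is also known as an abundant liver miRNA and as a promoter of fat cell formation from mesenchymal precursors.

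The mature sequences below show what makes the 3 genes a family and where they differ. They are from RefSeq (GRCm38.p6), written 5′ to 3′, with the seed (bases 2 to 8) in capitals.

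miR-148a-3p: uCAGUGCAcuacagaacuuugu

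miR-148b-3p: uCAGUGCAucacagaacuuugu

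miR-152-3p: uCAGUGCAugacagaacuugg

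The seed was identical in all 3, so the same 7-base site in an mRNA, UGCACUG, pairs with each. Counting from the 5′ end, miR-148a-3p differed from miR-148b-3p by C9U and U10C and matched it at the other 20 of 22 bases. From miR-148a-3p to miR-152-3p the changes were C9U, U10G and U20G over 21 bases. From miR-148b-3p to miR-152-3p they were C10G and U20G. Every difference thus lay outside the seed. Among 1605 mature sequences of the 974 rows that could be matched to RefSeq, only those of these 3 rows had this heptamer at bases 2 to 8.

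The other arm of each hairpin, the 5p arm, has its own seed, and here the family divides.

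miR-148a-5p: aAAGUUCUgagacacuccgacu

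miR-148b-5p: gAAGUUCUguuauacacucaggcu

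miR-152-5p: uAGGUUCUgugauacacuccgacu

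Mir148a and Mir148b share the seed AAGUUCU in this arm and Mir152 has AGGUUCU. The count table gives 1 value per hairpin, so the arms could not be told apart and every value below is for both together. The hairpins are shown next, with the 3p miRNA in capitals, because it is to the hairpin that reads were assigned.

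Mir148a hairpin: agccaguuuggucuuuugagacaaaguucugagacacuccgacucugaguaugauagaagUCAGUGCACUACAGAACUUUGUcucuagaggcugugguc

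Mir148b hairpin: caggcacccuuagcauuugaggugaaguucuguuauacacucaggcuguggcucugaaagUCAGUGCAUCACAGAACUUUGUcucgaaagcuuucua

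Mir152 hairpin: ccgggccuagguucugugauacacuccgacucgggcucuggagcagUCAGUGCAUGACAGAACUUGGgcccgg

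The Mir148a and Mir148b hairpins were identical at 71 of 103 alignment columns (68.9%), Mir148a and Mir152 at 58 of 101 (57.4%) and Mir148b and Mir152 at 59 of 99 (59.6%). The longest run of bases shared by any 2 of the hairpins was 15, between Mir148a and Mir148b. With a hairpin outside the family it was 12 at most. None of the 3 overlapped another row of the table. A full-length 3p read therefore differs from the other members by 2 or 3 bases, and a read with errors at those bases could be placed on the wrong member. One cut short at its end can lose the last of the differences from miR-152-3p before the earlier ones. How many reads this touched was not tested.

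The 3 genes lie on 3 chromosomes. Mir148a is at chromosome 6, 51269812 to 51269910 on the minus strand (mm10). It is intergenic in GENCODE M21, 162.8 kb from Nfe2l3, the nearest coding gene. Mir152 is at chromosome 11, 96850393 to 96850465 on the plus strand, in an intron of Copz2 and on its strand, 482.1 kb from Hoxb1. Mir148b is at chromosome 15, 103285125 to 103285221 on the plus strand, in an intron of Copz1 and on its strand, 248.3 kb from Hoxc4. Copz1 and Copz2 encode the zeta subunits of coatomer, the coat of vesicles that travel between the Golgi and the endoplasmic reticulum.

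The segments resemble each other in gene content. On one side each has a gene of the Nfe2 transcription factor family, namely Nfe2l3 at 162.8 kb from Mir148a, Nfe2l1 at 20.4 kb from Mir152 and Nfe2 at 26.7 kb from Mir148b. On that same side each also has a gene for a heterochromatin protein, with Cbx3 at 200.4 kb, Cbx1 at 41.8 kb and Cbx5 at 45.3 kb. Hnrnpa2b1 lies 191.0 kb from Mir148a and Hnrnpa1 38.4 kb from Mir148b. The Copz host gene is present at Mir152 and Mir148b and absent at Mir148a.

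**Figure D1:**
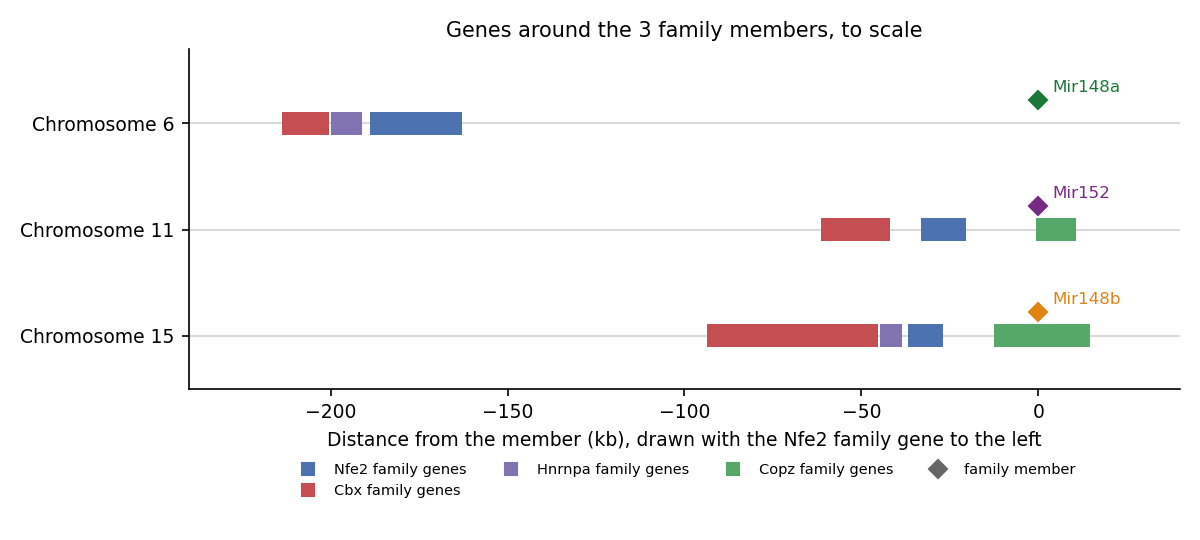
Genes around Mir148a, Mir152 and Mir148b in kb from each member (x axis), drawn to scale with the Nfe2 family gene to the left. Nfe2 family genes (blue) start 162.8 kb from Mir148a, 20.4 kb from Mir152 and 26.7 kb from Mir148b, and Cbx family genes (red) lie farther out on the same side.

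The libraries held 2932439 to 5019700 counts, with 484 to 532 of the 1155 rows above 0. Of 18 fibroblast and mesenchymal miRNA rows, 15 had counts, and the list held 61.9% to 63.1% of counts in WT and 61.8% to 68.2% in Fbxw7 KO. Mir21a and Mir143 led it, and it includes Mir152. The lists of other cell types held little. Neuronal miRNAs took up to 0.0718% of a library, muscle up to 0.0409%, epithelial up to 0.00618%, liver up to 0.00232%, blood cell up to 0.000438% and pluripotent cell up to 5.33e-05%. Both endothelial rows (Mir126a and Mir126b) were at 0, as were 6 of 9 muscle rows, 4 of 15 neuronal rows and 8 of 12 pluripotent cell rows. Mir142 and Mir155 of the blood cell list were also at 0, and so were Mir22, Mir24-1 and Mir222 of the fibroblast and mesenchymal list. A row at 0 can also be one whose reads were left out because they overlapped another row or aligned to several places. The Fbxw7 transcript was not analysed here.

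The members differed widely in the reads they received, and Mir148a held most of the family's counts. Per length, in the authors' FPKM values, Mir148a had 284326, 369510 and 327947 in WT replicates 1 to 3 and 399099, 367270 and 314924 in Fbxw7 KO replicates 1 to 3. Mir152 had 103712, 95218 and 76730 FPKM in WT and 117027, 117118 and 119215 in Fbxw7 KO. Mir148b had 12721, 12059 and 10710 FPKM in WT and 15117, 15331 and 17162 in Fbxw7 KO. The order Mir148a, Mir152, Mir148b held in all 6 libraries, and the lowest library of a member lay above the highest library of the next.

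On the FPKM scale Mir148a stood 2.64 to 4.27 times above Mir152 within a library, and Mir152 stood 6.95 to 8.15 times above Mir148b. FPKM divides by the length of the hairpin, which is shortest for Mir152. In counts the values were 3.58 to 5.80 times and 5.23 to 6.14 times. Ranked by counts among all 1155 rows, Mir148a ranked 3 to 9 (rank 9 in WT replicate 1 and rank 3 in Fbxw7 KO replicate 1). Mir152 ranked 15 to 21 and Mir148b 41 to 53. Averaged over the 6 libraries, Mir148a was the fifth most abundant row, after Mir21a, Mir143, Mir27b and Mir10a.

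Of the family's counts, Mir148a held 80.3% ± 3.66 in WT against 77.7% ± 2.43 in the knockout (SD, n = 3). Mir152 held 16.8% ± 3.26 and 18.9% ± 1.89, and Mir148b held 2.87% ± 0.406 and 3.39% ± 0.547. In both genotypes most reads of the family thus came from the intergenic gene. These are levels of reads in bulk RNA, where fewer cells with a miRNA and less of it per cell cannot be told apart. Whether the library preparation captured the members equally well was not tested, so ratios between members are ratios of reads.

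Between genotypes, Mir148b was called higher in Fbxw7 KO by a small amount, and that call ended in 13 of 18 alternative settings. Mir152 was higher in every KO library without passing the test, and Mir148a overlapped. These comparisons ask what loss of Fbxw7 does to each member. They used CPM, which is a count scaled to the TMM-adjusted library total, and edgeR's quasi-likelihood test with p-values adjusted by Benjamini-Hochberg over the 283 tested rows. Of all tested rows 25.4% passed at an adjusted p under 0.05, 15.2% as higher and 10.2% as lower in Fbxw7 KO. Of the 3 members 1 was higher and 0 were lower, so the count of members called does not set the family apart from that background.

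Mir148b, the member in Copz1, had 1208 CPM in WT replicate 1, 1221 in replicate 2 and 1042 in replicate 3. It had 1440, 1502 and 1639 CPM in Fbxw7 KO replicates 1 to 3. Each KO library was above each WT library, which was so for 23.7% of tested rows in this direction. The means were 1157 ± 99.7 CPM and 1527 ± 101.7 CPM (SD, n = 3). The log2 fold change was 0.40 (SE 0.126, 95% interval 0.12 to 0.68, adjusted p = 0.0465 by edgeR), a 1.32-fold rise with an interval of 1.08 to 1.61.

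The rise of Mir148b was among the smallest called. Of the 43 miRNAs called higher, 41 rose by more, and their median log2 fold change was 0.96. Its adjusted p lay close to the threshold of 0.05, and the call ended in 13 of 18 alternative settings, which include the omission of any 1 of the 6 libraries (adjusted p 0.0512 to 0.134). The log2 fold change stayed positive in each of the 18, from 0.27 to 0.45.

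Mir152, the member in Copz2, had 7415, 7253 and 5620 CPM in WT replicates 1 to 3 and 8388, 8638 and 8567 CPM in Fbxw7 KO. Again each KO library was above each WT library, as for 23.7% of tested rows. WT replicate 3 stood below the other WT libraries, as it did for Mir148b. The KO libraries lay within 1.03 times of each other, a coefficient of variation of 1.51% against 14.7% in WT. The means were 6762 ± 993 CPM and 8531 ± 128.6 CPM (SD, n = 3). The log2 fold change of 0.34 (SE 0.143, 95% interval 0.01 to 0.66) did not pass (edgeR adjusted p = 0.126), nor did it in any of the 18 alternatives (adjusted p 0.0536 to 0.316). Without WT replicate 3 the value was 0.21, more than 1.5 times smaller.

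Mir148a, the intergenic and most abundant member, had 27568, 38171 and 32572 CPM in WT replicates 1 to 3 and 38794, 36734 and 30690 CPM in Fbxw7 KO. The genotypes overlapped. WT replicate 1 was the lowest of the 6 libraries, Fbxw7 KO replicate 3 was next, and WT replicate 2 lay just below the highest. The means were 32770 ± 5304 CPM and 35406 ± 4212 CPM (SD, n = 3). The log2 fold change was 0.11 (SE 0.154, adjusted p = 0.643 by edgeR), with a 95% interval from −0.24 to 0.46, or 0.848 to 1.38 times the WT level. The interval includes a rise as large as that of Mir148b. When the TMM factors left out the Dlk1-Dio3 cluster, an imprinted cluster of many miRNAs, the value turned to −0.02. Leaving out 1 library moved it as well, and none of these values passed. It was 0.0013 with WT replicate 1 left out and 0.25 with WT replicate 2 left out. With Fbxw7 KO replicates 1, 2 and 3 left out in turn, it was 0.04, 0.07 and 0.22. With the lowest count of Mir148a at 108119, counting error, taking reads as independent molecules, was at most 0.304% of a value, and the coefficient of variation between replicates was 16.2% in WT and 11.9% in Fbxw7 KO.

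**Figure D2:**
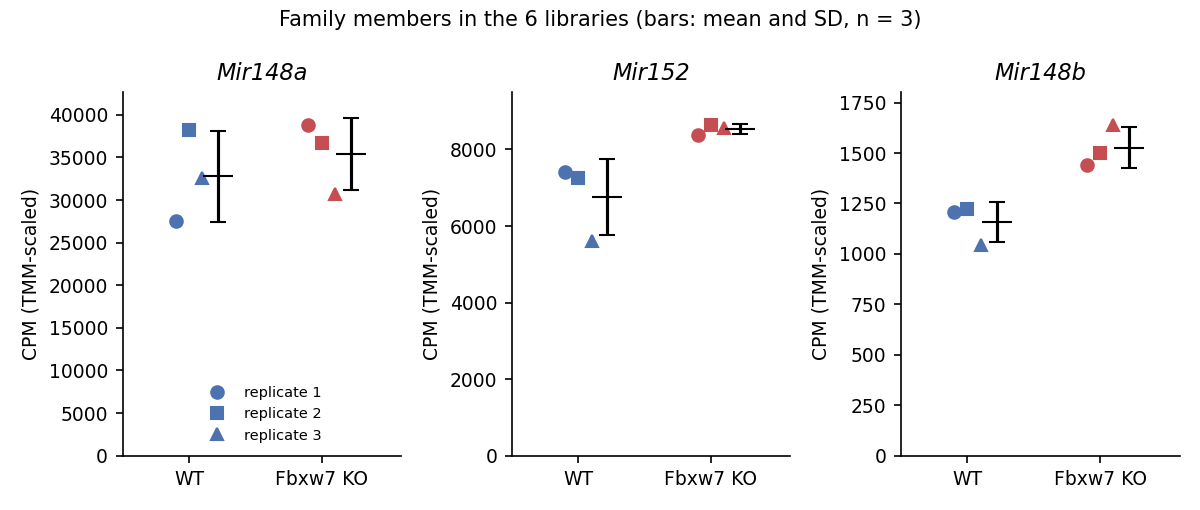
CPM (y axis, from 0) of Mir148a, Mir152 and Mir148b in each WT (blue) and Fbxw7 KO (red) library, with mean and SD (n = 3). The KO libraries lie above all WT libraries for Mir152 (8388 to 8638 against 5620 to 7415 CPM) and Mir148b (1440 to 1639 against 1042 to 1221 CPM), and the genotypes overlap for Mir148a.

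The members moved little beside the rows called higher, whose median log2 fold change was 0.96. The median log2 fold change of the members was 0.34 and that of all 283 tested rows 0.05. Larger positive values were found for 72 rows in the case of Mir148b, 79 for Mir152 and 126 for Mir148a. Non-overlapping genotypes with the KO libraries higher were found for 2 of the 3 members. Among all tested rows they were found for 23.7% in that direction and 43.8% in either direction.

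**Figure D3:**
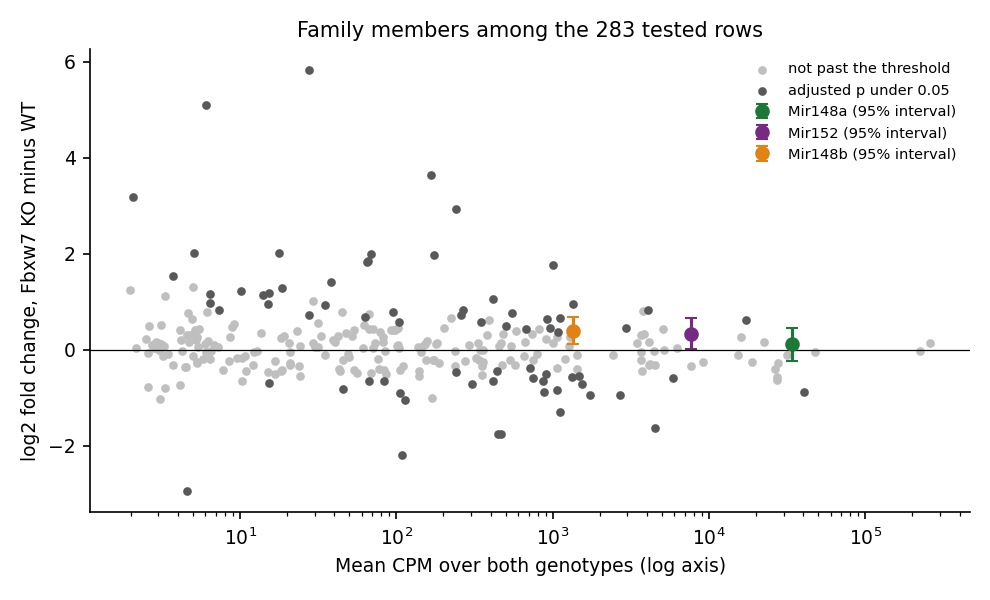
log2 fold change (Fbxw7 KO minus WT, y axis) against mean CPM (log x axis) of the 283 tested rows, dark grey where the edgeR adjusted p was under 0.05, with the 3 members in colour and their 95% intervals. The members lie at 0.40 (Mir148b), 0.34 (Mir152) and 0.11 (Mir148a), inside the central band of points.

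**Figure D4:**
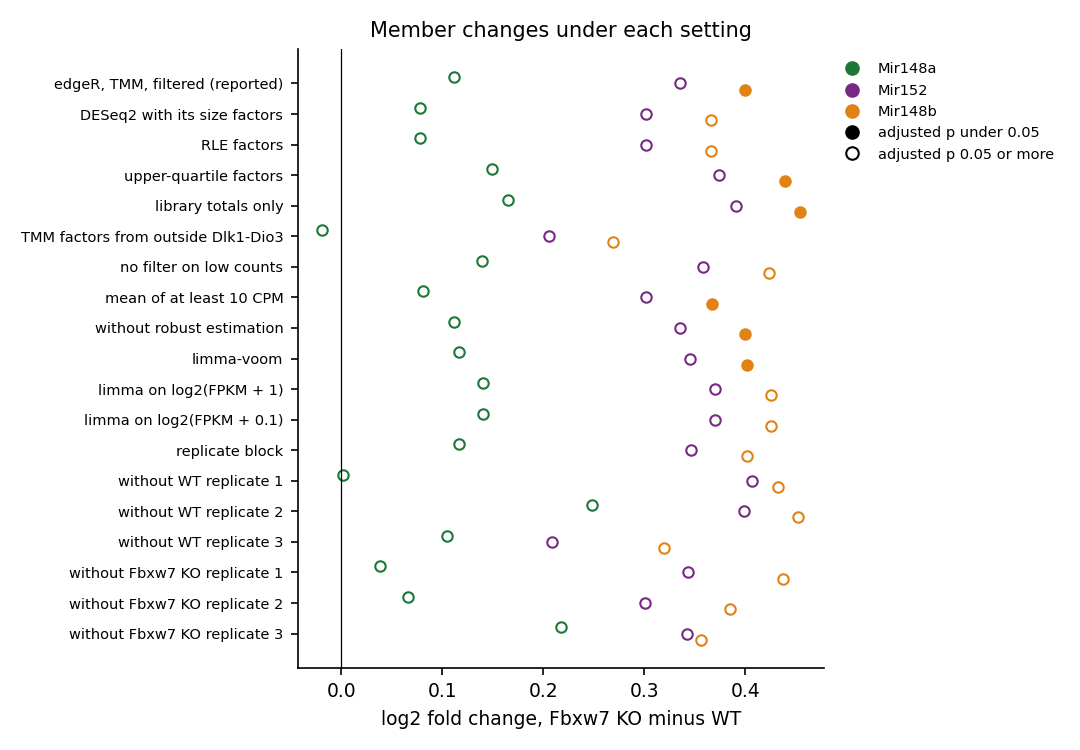
log2 fold change (Fbxw7 KO minus WT, x axis) of the 3 members under the reported test and 18 alternatives, filled where the adjusted p was under 0.05. Mir148b is filled in the reported test and 5 alternatives, Mir152 and Mir148a in none, and Mir148a crosses 0 to −0.02 with TMM factors from outside the Dlk1-Dio3 cluster.

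Changes of the members against each other were read within each library, where no scaling between libraries enters. The count of Mir152 was 6.14, 5.94 and 5.39 times that of Mir148b in WT replicates 1 to 3 and 5.83, 5.75 and 5.23 times in Fbxw7 KO. The pair in the Copz introns kept nearly the same balance in all 6 libraries. As a log2 ratio of Mir148b to Mir152 it averaged −2.54 ± 0.10 in WT against −2.48 ± 0.09 in the knockout (SD, n = 3), a difference of 0.06 (exact permutation p = 0.5, 2-sided).

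The balance with Mir148a varied more. Its count was 3.72, 5.26 and 5.80 times that of Mir152 in WT replicates 1 to 3 and 4.63, 4.25 and 3.58 times in Fbxw7 KO. The log2 ratio of Mir148a to Mir152 averaged 2.28 ± 0.34 in WT against 2.05 ± 0.19 in the knockout, a difference of −0.23 (exact permutation p = 0.4). That of Mir148a to Mir148b was 4.82 ± 0.26 and 4.53 ± 0.27 (SD, n = 3), a difference of −0.28 (exact permutation p = 0.3). WT replicate 1 and Fbxw7 KO replicate 3 had the lowest values of both ratios. Adjusted over the 3 ratios, each exact permutation p was 0.5, and this test cannot give one under 0.1 with 3 against 3 libraries. A different response of Mir148a to the genotype was not shown by this test, which could not have passed 0.05. Single libraries weighed on these differences. For Mir148a to Mir152 the value was −0.42 without WT replicate 1, −0.10 when WT replicate 3 was left out and −0.13 when Fbxw7 KO replicate 3 was. For Mir148a to Mir148b it was −0.44 without WT replicate 1 and −0.13 without Fbxw7 KO replicate 3.

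**Figure D5:**
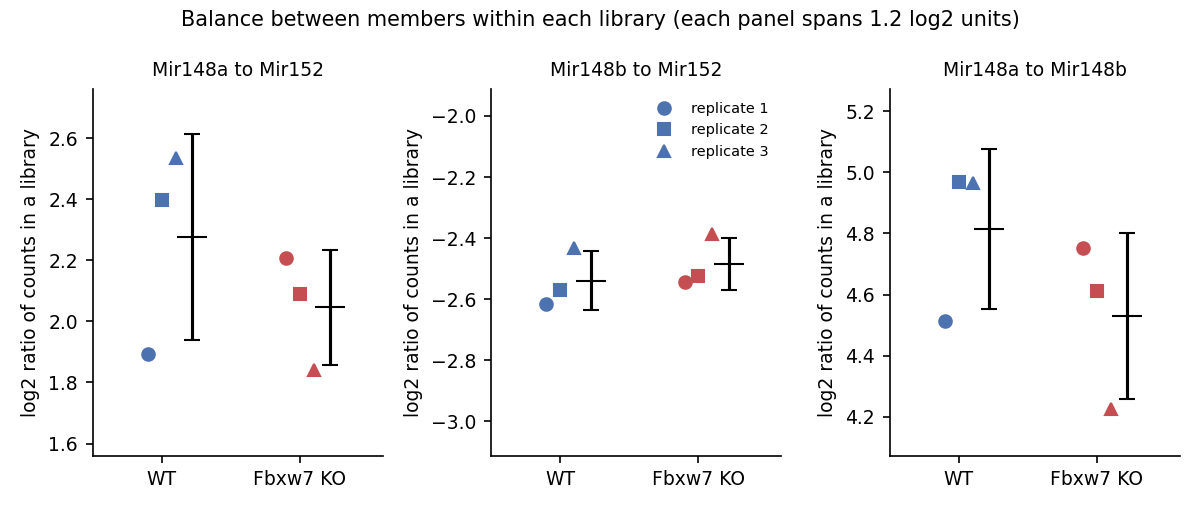
log2 ratio of counts between members within each library (y axis, the same span in each panel) for WT (blue) and Fbxw7 KO (red), with mean and SD (n = 3). The ratio of Mir148b to Mir152 has SDs of 0.10 and 0.09, and the ratios with Mir148a have SDs of 0.19 to 0.34 and overlap between genotypes.

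The family as a whole held 3.59%, 4.29% and 4.07% of counts in WT replicates 1 to 3 and 4.91%, 4.70% and 4.25% in Fbxw7 KO. The share of Fbxw7 KO replicate 3 fell among the WT values. The means were 3.99% ± 0.359 and 4.62% ± 0.335 (SD, n = 3), a difference of 0.64 percentage points (exact permutation p = 0.2, where 0.1 is the smallest possible). With TMM-scaled library totals the difference was 0.48 points (exact permutation p = 0.2). On that scale WT replicate 2 had 4.66% and Fbxw7 KO replicate 3 had 4.09%. As Mir148a makes up most of this share, it mainly follows that member.

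Likeness across the 6 libraries was measured as the root mean square difference of log2 CPM, each row centred on its own mean, over the 217 other tested rows with a mean of at least 10 CPM. Mir148b was the row most like Mir152, at 0.08 log2 units, where the median row differed by 0.35. Mir652 (0.10) and Mir494 (0.10) followed. For Mir148b the order was Mir1839 (0.07), Mir152 (0.08) and Mir23a (0.09). Mir148a was most like Mir128-1 (0.07), Mir674 (0.10) and Mir149 (0.14). Its own family members were in places 57 (Mir152, 0.25) and 66 (Mir148b, 0.26). Mir128-1 and Mir23a share 20 bases or more with another row, so their values are uncertain. These are descriptions of 6 libraries scaled by the same factors, and many rows lie close together on such a measure.

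miRNAs of the miR-130 and miR-301 family carry the same heptamer 1 base nearer the 5′ end, which is shown in capitals here to set it beside the family seed.

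miR-130a-3p: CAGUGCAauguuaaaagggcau

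miR-130b-3p: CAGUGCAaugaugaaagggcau

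miR-301a-3p: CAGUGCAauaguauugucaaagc

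Because of the shift, their own seed (bases 2 to 8) is AGUGCAA, and a target site for one family is not in full a site for the other. Among the mature sequences searched, which held no 3p arm of Mir301b, 7 rows had the heptamer at bases 1 to 7, and 3 of these had counts. Those 7 rows held 0.0313% to 0.0367% of counts in a library, against 3.59% to 4.91% for the 3 rows with it at bases 2 to 8.

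None of the 4 tested members of the miR-130 and miR-301 list passed, by edgeR, DESeq2 or limma-voom. The number with an unadjusted p under 0.05 was 0 by edgeR, 1 by DESeq2 and 0 by limma-voom. Mir130a had a mean of 172 ± 13.3 CPM in WT against 188.9 ± 4.46 in the knockout (SD, n = 3, log2 fold change 0.14, adjusted p = 0.508 by edgeR). Mir130b had 120.8 ± 10.6 and 90.2 ± 22.7 CPM (−0.42, adjusted p = 0.182 by edgeR). Mir301 had a value of −0.15 (edgeR adjusted p = 0.647) that ran from −0.28 to 0.05 over the alternatives. Mir301b, at 4.99 ± 1.32 and 3.91 ± 1.69 CPM, had −0.36 (edgeR adjusted p = 0.511). The median of the 4 was −0.26. Mir721, the fifth row of the list, was at 0 in all libraries.

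miRNAs reported to repress DNA methyltransferases, the enzyme class that includes the family's target Dnmt1, were listed with the 3 members. Of 14 rows, 12 were tested, 3 rose and 0 fell, where 15.2% of all tested rows were called higher and 10.2% lower. The median log2 fold change was 0.30 and 10 of the 12 values were positive, against 0.05 and 53.4% among all tested rows. Those 10 include the 3 members, whose values are given above, so the list is no separate evidence about them. Mir29a, a repressor of Dnmt3a, Dnmt3b and collagen genes, had 13648 ± 852 CPM in WT, which rose to 20929 ± 1300 in the knockout (0.62 on the log2 scale, SE 0.122, adjusted p = 0.00789 by edgeR, and 0.0512 without Fbxw7 KO replicate 2). Mir101b rose from 943 ± 12.2 CPM in WT to 1227 ± 60.2 in the knockout (0.38, SE 0.112, adjusted p = 0.0369 by edgeR), but this call ended in 10 of 18 alternatives and the row shares 20 bases with Mir101a (−0.37, adjusted p = 0.126 by edgeR). Mir148b was the other. The Mir29a hairpin shares a run of 14 bases with another row, and how many reads this touched was not tested. With DESeq2 only 1 of the 12 passed, and likewise 1 with the factors from outside the Dlk1-Dio3 cluster, where 8 of the 12 values were positive.

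Of 19 rows of miRNAs reported to act in fat cell formation, which include Mir148a, 15 were tested, 2 rose and 0 fell, with a median log2 fold change of 0.07. The count called higher is near the background of 15.2%. Positive values were found for 10 of the 15, against 53.4% of all tested rows, or for 6 with the factors from outside the Dlk1-Dio3 cluster. Mir210, the hypoxia miRNA, went from 55.4 ± 15.0 CPM in WT to 423 ± 156 in the knockout (2.93, SE 0.304, adjusted p = 0.000666 by edgeR). Mir378a, encoded in Ppargc1b, had 407 ± 88.5 and 693 ± 116 CPM (0.77, SE 0.192, adjusted p = 0.0195 by edgeR, and 0.0631 without WT replicate 1). Runs of bases shared with other rows were not searched for Mir378a. The other 13, Mir148a and the highly expressed Mir143 among them, did not pass.

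The nearest expressed miRNAs on the chromosomes of the Copz pair are those of the Hox clusters, and 3 of these 4 fell in Fbxw7 KO. Mir615, 270.1 kb from Mir148b in the HoxC cluster, fell by 1.62 on the log2 scale (SE 0.216, adjusted p = 0.00114 by edgeR), and Mir196a-2, 311.7 kb away, had −0.94 (adjusted p = 0.00275). Mir10a, 533.1 kb from Mir152 beside the HoxB genes, had −0.89 (SE 0.131, adjusted p = 0.00179 by edgeR). Mir196a-1, 585.1 kb from Mir152, did not pass (−0.22, adjusted p = 0.409 by edgeR), and it and Mir196a-2 share 22 bases, so that their counts are uncertain. The falls of Mir615, Mir196a-2 and Mir10a held in all 18 alternatives. Mir10a shares a run of 15 bases with another row, and Mir615 was not searched for such runs. In the whole Hox list 3 of 5 tested rows fell and 0 rose, with a median of −0.89, against 10.2% lower among all tested rows. For Mir148a the nearest row with at least 10 CPM was Mir29a, 20207.1 kb away, and Mir196b was not analysed here. The difference in response between Mir148b or Mir152 and these neighbours was not tested.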

How the data were processed

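Per the file headers, the authors made the deposited counts with featureCounts 1.6.4, by gene name, with strand ignored and with neither multi-mapping nor multi-feature reads switched on. Per the submitters' processing notes, reads were handled on mm10 and TopHat2 2.1.1, Cufflinks 2.2.1, deepTools and SAMtools 1.5 were used, in roles not given in the sources used here. Libraries were Illumina TruSeq miRNA preparations of Trizol-extracted RNA. The deposited FPKM values equal the counts divided by length and TMM-scaled total in all 1155 rows (relative difference under 1e-06), so the FPKM values are no separate evidence.

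The deposited counts entered edgeR 4.0.16 (R 4.3.3, TMM, filterByExpr with a minimum count of 10 and total of 15, robust glmQLFit, glmQLFTest, 2-sided, genotype as the only term). The test was checked on simulated data, with folds larger than those estimated for the members, so the check does not cover changes as small as theirs. The SE of a log2 fold change came from the F statistic. Ratios and shares used exact 2-sided permutation tests (scipy 1.17.1). Hairpins were aligned with Biopython 1.88. Alternatives used DESeq2 1.42.0, limma 3.58.1, other factors and filters, log2(FPKM + 1) and log2(FPKM + 0.1), a replicate block and the omission of each library.

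Named rows are the members, the nearest rows with at least 10 CPM on each side and Hox miRNAs within 2 Mb, the 3 rows most like each member, and from each list every tested row where 4 or fewer, otherwise up to 4 called rows or the 2 most abundant. Mir101a was added after its value was seen, as were the Nfe2, Cbx and Hnrnpa genes. The members and lists were chosen with earlier results of these data known.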

Additional observations from a re-analysis of the deposited data

How the results depend on the processing

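Mir152 kept its direction and did not pass in any alternative run. The ratios between members and the family share of counts kept their direction too, and their exact permutation test could pass under none. With 1 library left out, the ratio differences ran from −0.42 to −0.10 (Mir148a to Mir152), −0.44 to −0.13 (Mir148a to Mir148b) and 0.0067 without Fbxw7 KO replicate 3 to 0.11 without WT replicate 3 (Mir148b to Mir152, also 0.02 without WT replicate 1 and 0.08 without Fbxw7 KO replicate 1). Mir148a reversed to −0.0193 (adjusted p = 0.965) with TMM factors from miRNAs outside the Dlk1-Dio3 cluster. That scaling moved the median over the tested rows by −0.13 on the log2 scale, from 0.05 to −0.08, and gave 29 higher and 34 lower calls against 43 and 29. Relative to the median of all tested rows under each setting, Mir148b lay between 0.30 and 0.40, Mir152 between 0.18 and 0.36 and Mir148a between −0.05 and 0.19.

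Mir148b lost its call, with log2 fold changes of 0.37 with DESeq2 (adjusted p = 0.0605), 0.37 with RLE factors (0.0606), 0.27 with the factors from outside Dlk1-Dio3 (0.13), 0.42 with no filter on low counts (0.114, with 671 rows tested) and 0.43 with limma on log2(FPKM + 1) or log2(FPKM + 0.1) (0.0828 and 0.0833). With the replicate block it was 0.40 (adjusted p = 0.0548). Same-numbered libraries correlated at −0.0564, 0.136 and 0.157 in their deviations from the group means. Libraries with unlike numbers correlated at −0.182 to 0.151. With 3 libraries per genotype, these values cannot show if same-numbered libraries share a culture or batch. The block gave 76 calls and changed no other member's call. WT replicate 1 and Fbxw7 KO replicate 1 did not correlate best with each other, while WT replicate 3 and Fbxw7 KO replicate 3 did (0.157).

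With 1 library left out at a time, the log2 fold change of Mir148b ranged from 0.32 to 0.45, with the call lost each time. The number of changed miRNAs, 72 in all, ranged from 34 without Fbxw7 KO replicate 2 to 78 without Fbxw7 KO replicate 3, with 35 without WT replicate 2 and 42 without WT replicate 1. The cause of these losses was not tested. For Mir148b the counting error, taking reads as independent molecules, was at most 1.58% of a value, and the coefficient of variation between replicates was 8.61% in WT and 6.66% in Fbxw7 KO.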
